A study of Mus musculus with 16 samples.

Results

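The keratin family was read on 16 single-colour Agilent arrays of mouse eye tissue holding retina and retinal pigment epithelium (RPE). Its members were all probes whose RefSeq accession is named by a gene symbol made of Krt and a number, with the keratin-associated proteins left out. This gave 64 of 55681 probes and 53 of 20660 named genes, and 52 of the 53 were tested. Krt25 was left out, since a probe had to be well above background on 4 arrays or more. Of the 52, 42 had a probe well above background on all 16 arrays and 10 on some of them. By the tissues where each is known to be made, the tested genes were the Krt8 and Krt18 pair of simple epithelia, 3 other simple epithelial keratins, Krt23, 20 keratins of stratified surface epithelia, 25 of hair follicles, and Krt222, which is in no such class. Some keratins are made in more than 1 of these tissues. Krt17, of hair follicles and wounded skin, was counted with the surface epithelia.

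The 4 groups, of 4 arrays each, were nm3342 mutant mice aged 1 month, wild-type mice aged 1 month, nm3342 mutant mice aged 1 year and wild-type mice aged 1 year (P30 and P365). All are labelled as male mice of the C57Bl/6J background. The labels describe the mutants as having serous retinal detachment. They leave the affected gene unnamed, and the genotype could not be checked on it. RNA came from both retinas and the RPE together, so the values do not separate the tissues, and fewer cells of a type and less RNA per cell cannot be told apart.

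A level below is the log2 intensity of a gene's probe after subtraction of the array's 75th percentile, so that 0 is that percentile and 1 unit is a factor of 2. Between 82.1% and 89.6% of probes were well above background on each array. The arrays lay on 2 slides with 2 arrays of each group on each. On 3 mutant arrays (replicates 2 and 3 at 1 month, replicate 1 at 1 year) Xist was above Ddx3y, against the male label, and genotype differences of the keratins given on every array are also given without them. The RPE was represented in every group (the summed level of 9 RPE genes was 7.58 to 8.02 in mutants and 6.76 to 7.32 in wild type at 1 month, and 7.40 to 7.80 in mutants and 7.47 to 7.88 in wild type at 1 year). Lens genes, which mark tissue outside the labelled pair, ranged over summed levels of 6.24 to 10.64 in mutants and 9.26 to 9.78 in wild type at 1 month, and 3.05 to 9.32 in mutants and 0.90 to 6.36 in wild type at 1 year.

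Keratins are the intermediate filament proteins of epithelial cells, and a filament needs a type I and a type II partner. In the mouse most type I genes lie together on chromosome 11 and the type II genes on chromosome 15, where Krt18, a type I gene, lies beside Krt8. Krt8 and Krt18 form the filaments of simple epithelia, the RPE among them. Stratified epithelia make Krt5 and Krt14 in basal cells, Krt12 in the cornea, Krt4 and Krt13 in mucosa such as the conjunctiva, and Krt1 and Krt10 in the upper layers of the epidermis. The array held 27 keratin genes of chromosome 11 and 26 of chromosome 15.

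The promoters of 4 members are shown because the results turn on them: Krt23, the keratin with the largest genotype difference, Krt12, the keratin of the cornea, and the simple epithelial pair. Each runs from 250 bases before to 50 bases after the annotated start in RefSeq's GRCm38.p6 annotation. Krt23 is at chr11:99493071-99493370 on the minus strand, Krt12 at chr11:99422210-99422509 on the minus strand, Krt8 at chr15:102004293-102004592 on the minus strand and Krt18 at chr15:102027966-102028265 on the plus strand. Capitals mark every match, on either strand, to the TATA-type motifs TATAAA and ATAAAA or to TGANTCA, the AP-1 motif.
Krt23: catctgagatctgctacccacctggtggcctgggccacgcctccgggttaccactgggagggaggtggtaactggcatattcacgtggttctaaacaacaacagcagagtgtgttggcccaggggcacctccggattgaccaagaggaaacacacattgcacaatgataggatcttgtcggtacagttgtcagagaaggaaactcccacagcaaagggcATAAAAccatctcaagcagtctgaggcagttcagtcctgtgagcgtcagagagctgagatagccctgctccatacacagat
Krt12: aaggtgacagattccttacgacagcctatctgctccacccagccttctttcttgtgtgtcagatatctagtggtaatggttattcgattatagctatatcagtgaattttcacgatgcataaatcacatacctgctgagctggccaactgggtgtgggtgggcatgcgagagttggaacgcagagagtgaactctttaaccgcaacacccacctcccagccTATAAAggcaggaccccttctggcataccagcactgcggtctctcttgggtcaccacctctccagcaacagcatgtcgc
Krt8: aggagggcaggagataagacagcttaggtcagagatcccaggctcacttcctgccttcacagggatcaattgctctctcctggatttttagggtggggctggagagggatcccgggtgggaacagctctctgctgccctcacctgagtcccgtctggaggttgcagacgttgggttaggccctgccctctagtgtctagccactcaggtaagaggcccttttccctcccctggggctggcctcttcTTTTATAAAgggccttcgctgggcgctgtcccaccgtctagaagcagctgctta
Krt18: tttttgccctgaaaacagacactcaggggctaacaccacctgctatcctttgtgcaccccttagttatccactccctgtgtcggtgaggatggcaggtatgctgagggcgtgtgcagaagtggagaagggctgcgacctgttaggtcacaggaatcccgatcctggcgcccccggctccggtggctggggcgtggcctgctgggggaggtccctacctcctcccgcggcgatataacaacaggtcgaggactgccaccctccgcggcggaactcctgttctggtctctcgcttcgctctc
The Krt12 promoter held TATAAA beginning 29 bases before the start. The Krt23 promoter held ATAAAA beginning 31 bases before it. In Krt8 the matches overlapped, with TATAAA on the gene's strand beginning 1 base before the annotated start, and in Krt18 none of these letters matched. Promoter sequences were found for 36 of the keratin genes, 37 sequences in all. In a window of 40 to 16 bases before the start, on the gene's strand, TATAAA was present in 35.1% of keratin promoters, against 1.99% of all 32851 mouse promoters, and ATAAAA in 37.8%, against 1.72%. Over all 300 bases and both strands, TATAAA was in 51.4% of keratin promoters and 13.6% of all, ATAAAA in 59.5% and 18.5%, and TGANTCA in 5.41% and 7.81%. TATAAA and ATAAAA can overlap and a promoter can count for both.

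At 1 month, Krt23 and Krt1 were higher in mutants and the other 50 tested keratins did not pass the test. Krt23 is a type I keratin, known in human pancreatic cancer cells as a gene induced by histone deacetylase inhibitors, and its level was 8.03-fold higher in mutants. Krt1, the type II keratin of the upper epidermis, was 1.45-fold higher. Krt10, the other keratin named above for those layers, differed by 0.10 at 1 month (adjusted p = 0.785) and -0.13 at 1 year (adjusted p = 0.776, limma). The 2 of 52 keratins called higher stand beside 2.02% of all 19028 genes tested called higher in this comparison (limma, adjusted p under 0.05), and 2.71% of all genes were called in either direction. No keratin was called lower, beside 0.688% of all genes, and 5 keratins had an unadjusted p under 0.05, beside 15.2% of all genes. The groups did not overlap for 2 keratins, beside 8.53% of all genes. The median log2 difference of the 52 keratins was 0.03, and that of all genes tested was 0.02.

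Krt23 levels were 1.41, 0.85, 1.54 and 1.14 on the mutant arrays at 1 month, against -2.82, -1.23, -1.65 and -1.37 on the wild-type arrays. Every mutant array lay above every wild-type array at this age. The difference was 3.005 ± 0.44 (log2, SE, n = 4 each; limma adjusted p = 0.00235). It was 3.02 on slide 1 (adjusted p = 0.437) and 2.99 on slide 2 (adjusted p = 0.0266), with 2 arrays per group on each, and with slide as a block the limma adjusted p was 0.000927. Without the 2 mutant arrays on which Xist was above Ddx3y it was 3.04 (limma adjusted p = 0.0449).

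RPE genes moved with this comparison: 7 of 9 were called higher in mutants at 1 month, none lower. All 9 were well above background on all 16 arrays, and the list's other gene, Best1, was not tested. Rlbp1, the retinaldehyde carrier of RPE and Müller cells, was 0.58 log2 units higher (limma adjusted p = 0.00593), while Rpe65, the RPE's retinoid isomerase, differed by -0.18 (adjusted p = 0.684). With the mean RPE level of each array as a covariate the Krt23 difference was 2.41 (limma adjusted p = 0.19). The mean RPE level did not overlap between genotypes at 1 month (3.20 to 3.69 in mutants, 2.55 to 3.12 in wild type). This fit therefore cannot part genotype from RPE level. Markers of surface epithelium other than keratins gave 0 of 17 called at 1 month (0 also at an unadjusted p under 0.05), and with their mean as a covariate the Krt23 difference was 2.86 (limma adjusted p = 0.000602). Of 9 neutrophil genes 2 were called higher in mutants at 1 month, S100a8 (3.26, limma adjusted p = 0.0248) and S100a9 (3.02, adjusted p = 0.0438), with summed levels of 1.34 to 3.01 in mutants and 1.54 to 1.87 in wild type. Of 10 genes of gliosis and retinal stress 0 were called at 1 month (limma; 4 at an unadjusted p under 0.05). The neutrophil genes did not move as 1 list at 1 month: 5 of the 9 had a positive difference. Their median was 0.11 and the lowest -0.66. The part of the neutrophil genes in the keratin differences was not tested.

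Krt1 levels were -2.41, -2.57, -2.33 and -2.63 on the mutant arrays at 1 month, against -3.02, -3.01, -3.13 and -2.95 on the wild-type arrays. They were -2.30, -2.57, -2.37 and -2.47 on the mutant arrays at 1 year, against -2.91, -2.80, -3.30 and -3.07 on the wild-type arrays. All 8 mutant arrays lay above all 8 wild-type arrays. The differences were 0.54 ± 0.11 at 1 month (adjusted p = 0.0158) and 0.59 ± 0.11 at 1 year (adjusted p = 0.0157; limma, log2, SE, n = 4 each). Leaving out mutant replicate 1, mutant replicate 3 or wild-type replicate 3 gave 0.51 (adjusted p = 0.0568), 0.49 (adjusted p = 0.0528) and 0.50 (adjusted p = 0.0529) at 1 month by limma. Leaving out mutant replicate 1 or 3 gave 0.55 (adjusted p = 0.0618) and 0.58 (adjusted p = 0.0626) at 1 year by limma. Without the arrays on which Xist was above Ddx3y the differences were 0.51 at 1 month (limma adjusted p = 0.16) and 0.55 at 1 year (limma adjusted p = 0.101). Within slides they were 0.41 and 0.67 at 1 month (adjusted p = 0.777 and 0.201) and 0.58 and 0.61 at 1 year (adjusted p = 0.448 and 0.564; limma, slides 1 and 2, 2 arrays per group). With slide as a block the limma adjusted p was 0.0169 at 1 month and 0.0178 at 1 year. With normexp background correction both calls were lost, at 0.33 (limma adjusted p = 0.0652) and 0.32 (adjusted p = 0.119). The 1-year call was also lost with quantile normalization (0.66, limma adjusted p = 0.0558) and with replicate number as a block (adjusted p = 0.0513). With the RPE mean as a covariate the 1-month difference was 0.51 (limma adjusted p = 0.313), with the limit given above for Krt23.

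**Figure D1:**
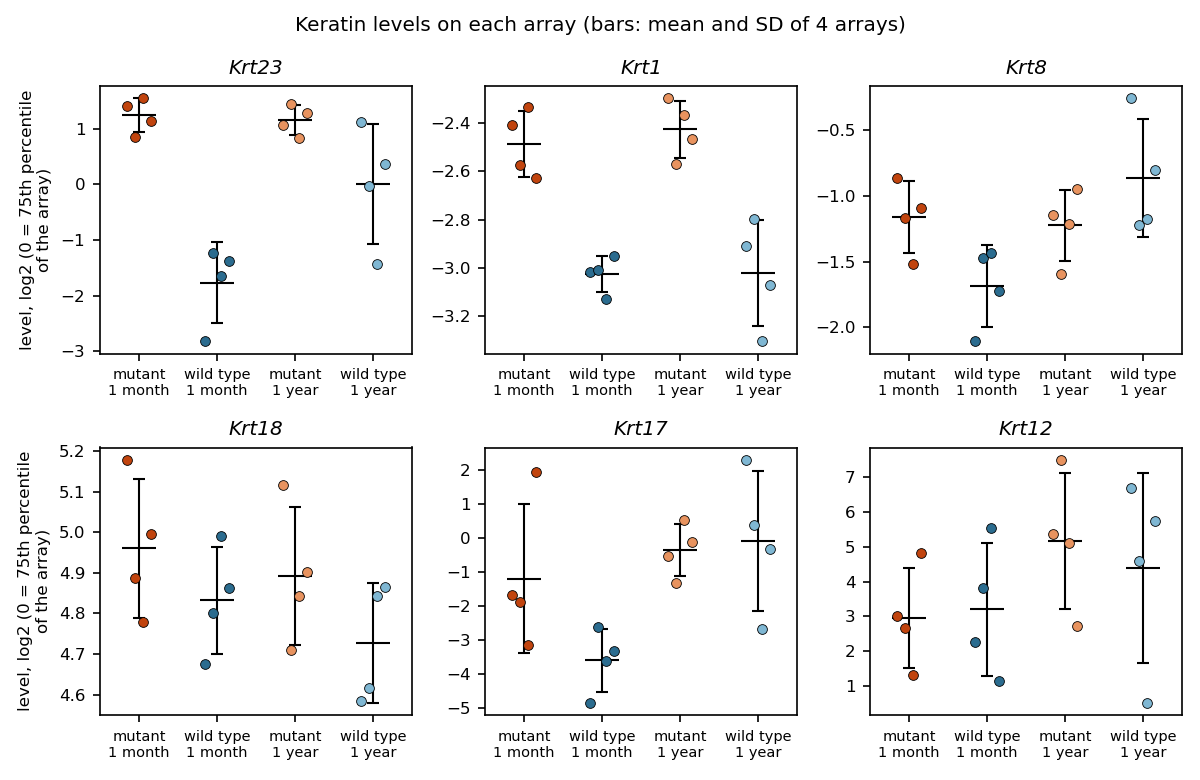
Levels of 6 keratins on each of the 16 arrays (log2, 0 is the array's 75th percentile), with points for arrays and bars for the mean and SD of 4 arrays; each panel has its own vertical axis. Krt23 lies at 0.85 to 1.54 in mutants and at -2.82 to -1.23 in wild type at 1 month, Krt1 is higher on all 8 mutant arrays than on all 8 wild-type arrays, and the groups overlap for Krt18 and Krt12.

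At 1 year, Krt1 was the 1 keratin of 52 called, and it was higher in mutants. Of all genes, 0.61% were called higher and 0.857% in either direction. At an unadjusted p under 0.05 there were 5 keratins (Krt1, Krt23, Krt28, Krt71 and Krt73), beside 11.3% of all genes. The groups did not overlap for 3 keratins, beside 7.83% of all genes: Krt1, higher in mutants, and Krt28 and Krt39, hair follicle keratins with lower levels in mutants that did not pass the test (differences of -0.92, adjusted p = 0.326, and -0.41, adjusted p = 0.666, by limma). The median difference was -0.06 over the keratins and -0.01 over all genes. Other markers called higher in mutants at 1 year were 5 of 10 gliosis and stress genes (C4b, Edn2, Lcn2, Osmr and Stat3; summed levels of 5.23 to 5.81 in mutants and 4.03 to 4.38 in wild type) and 1 of 9 neutrophil genes (Lcn2, also in the first list; 2.80 to 3.85 in mutants and 1.90 to 2.76 in wild type). Of the 9 neutrophil genes only 2 had a positive difference, and the median was -0.24. The higher summed level therefore does not hold for most of that list. The part of these gliosis, stress and neutrophil genes in the Krt1 difference was not tested.

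Krt23 levels at 1 year were 1.06, 1.45, 0.82 and 1.27 on the mutant arrays, against 1.12, -0.03, -1.43 and 0.36 on the wild-type arrays. Wild-type replicate 1 lay inside the mutant range and the other 3 wild-type arrays below it. The difference was 1.15 ± 0.44 (limma adjusted p = 0.310, n = 4 each). It was 0.67 without wild-type replicate 3 (limma adjusted p = 0.657) and 1.52 without wild-type replicate 1 (adjusted p = 0.15), 1.86 on slide 1 (adjusted p = 0.454) and 0.43 on slide 2 (adjusted p = 0.92). Without the mutant array on which Xist was above Ddx3y it was 1.17 (limma adjusted p = 0.499). The change of the genotype difference between ages, 1 year minus 1 month, was -1.86 ± 0.62 for Krt23 and did not pass the test (limma adjusted p = 0.245). For that change 0 of 52 keratins were called by limma, beside 0.42% of all genes, and 3 keratins (Krt23, Krt8 and Krt71) had an unadjusted p under 0.05, beside 10.8% of all genes. Krt8's was -0.89 ± 0.31 (limma adjusted p = 0.275). Of 9 RPE genes 0 had a positive change, and the median was -0.62. Tyrp1 was called lower, and 7 had an unadjusted p under 0.05 (limma). Between genotypes at 1 year 0 of the 9 RPE genes were called (limma, 4 at an unadjusted p under 0.05), with a median of -0.09. With the RPE mean as a covariate the Krt23 difference at 1 year was 1.41 (limma adjusted p = 0.225). The part of the RPE genes in the Krt23 change was not tested.

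Neither member of the simple epithelial pair was called between genotypes. Krt8, the type II partner, had levels of -0.86, -1.17, -1.52 and -1.09 in mutants at 1 month, against -2.11, -1.48, -1.43 and -1.73 in wild type. At 1 year they were -1.14, -1.60, -1.21 and -0.95 in mutants, against -0.25, -1.22, -1.18 and -0.80 in wild type. The genotypes overlapped at both ages, with differences of 0.53 ± 0.22 at 1 month (adjusted p = 0.268) and -0.36 ± 0.22 at 1 year (adjusted p = 0.601, limma, n = 4 each). The fit with the RPE mean as a covariate cannot part genotype from RPE level at 1 month. In it the Krt8 differences were 0.04 at 1 month (adjusted p = 0.979) and -0.14 at 1 year (adjusted p = 0.784, limma). Without the arrays on which Xist was above Ddx3y they were 0.71 (adjusted p = 0.425) and -0.39 (adjusted p = 0.696, limma).

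Krt18, the type I partner, had levels of 5.18, 4.89, 4.78 and 4.996 in mutants at 1 month, against 4.68, 4.80, 4.99 and 4.86 in wild type. At 1 year they were 5.12, 4.71, 4.84 and 4.90 in mutants, against 4.58, 4.62, 4.84 and 4.87 in wild type. All 16 values lay within 0.60 log2 units. The genotype differences were 0.13 ± 0.11 at 1 month (adjusted p = 0.645) and 0.17 ± 0.11 at 1 year (adjusted p = 0.647, limma, n = 4 each), and without the arrays on which Xist was above Ddx3y 0.26 (adjusted p = 0.562) and 0.09 (adjusted p = 0.862).

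The other simple epithelial keratins, Krt7, Krt19 and Krt20, were not called in either genotype comparison. Krt7, of glandular and ductal epithelia, averaged -1.18 ± 0.57 in mutants and -1.90 ± 0.61 in wild type at 1 month, and -0.66 ± 0.43 in mutants and -0.40 ± 1.42 in wild type at 1 year (SD, n = 4 each). Krt19, the smallest keratin, averaged 0.66 ± 0.95 in mutants and -0.25 ± 1.08 in wild type at 1 month, and 1.22 ± 0.41 in mutants and 1.31 ± 1.67 in wild type at 1 year. Krt20, of gut epithelium, averaged -2.51 ± 0.57 in mutants and -2.29 ± 0.66 in wild type at 1 month, and -2.72 ± 0.63 in mutants and -2.84 ± 0.63 in wild type at 1 year.

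The genes on either side of Krt23 on chromosome 11 are Krt20 and Krt39, and neither was called. Their differences at 1 month were -0.22 (adjusted p = 0.853) and -0.48 (adjusted p = 0.468, limma). Krt2 and Krt77 flank Krt1 on chromosome 15, with differences of 0.08 (adjusted p = 0.735) and 0.03 (adjusted p = 0.979) at 1 month and -0.06 (adjusted p = 0.856) and -0.63 (adjusted p = 0.504) at 1 year by limma.

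**Figure D2:**
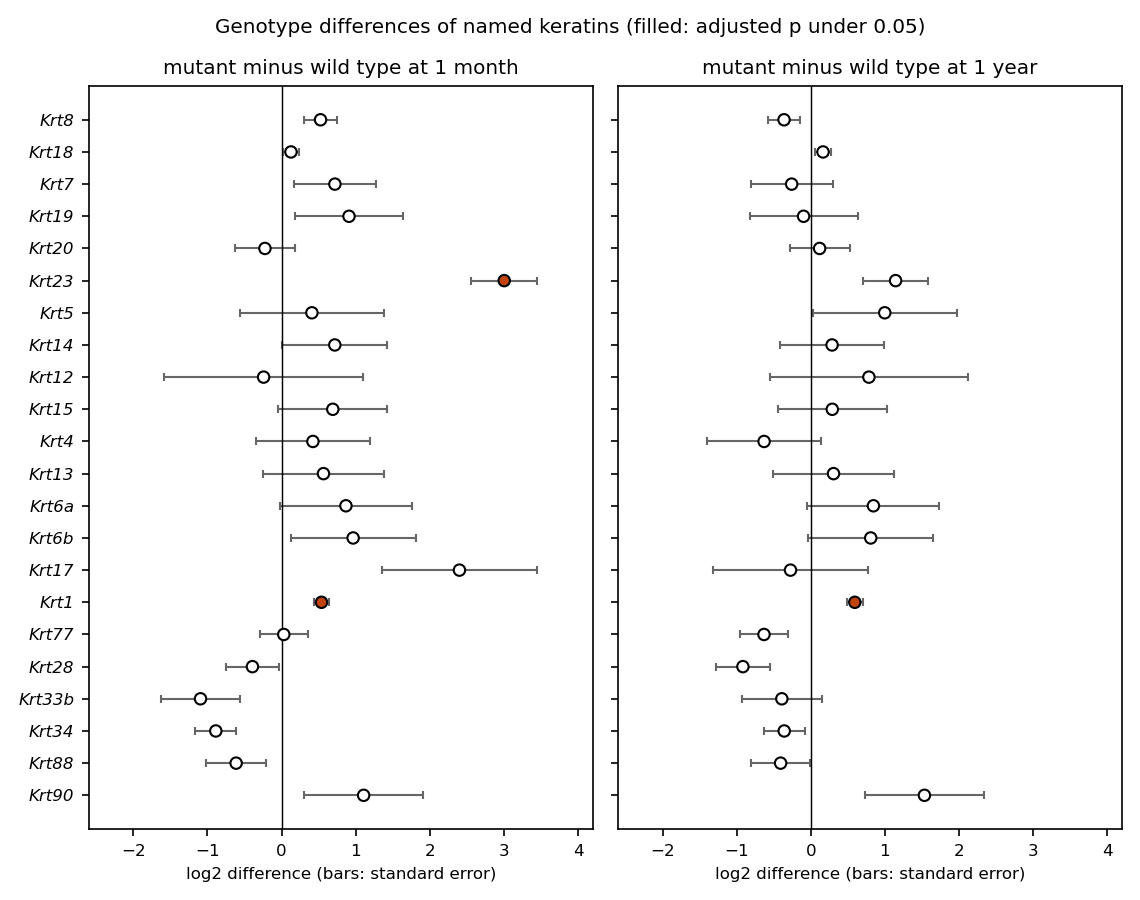
Log2 differences between mutants and wild type at 1 month (left) and 1 year (right) for 22 named keratins, with bars for the standard error and filled points for those called by limma. Krt23 (3.005) and Krt1 (0.54) are filled at 1 month and Krt1 alone (0.59) at 1 year, while the surface keratins Krt12 and Krt5 have standard errors of 1.34 and 0.97.

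The keratins of surface epithelium had a wide spread within groups. The median SD among replicates was 1.11 log2 units over the 20 surface keratins, against 0.187 over all genes tested. It was above 1 for 11 of the 20, and for 1.59% of all genes. Among the 11 was the dim Krt76 (1.13), which was well above background on only 5 of the 16 arrays. The hair follicle keratins had a median SD of 0.552. The wide spread was not particular to keratins. The median SD was 1.01 over the 17 surface epithelium genes that are not keratins, with 9 above 1. It was 0.914 over 19 genes of desmosomes, hemidesmosomes and their linkers (8 above 1) and 2.15 over 9 lens genes (9 above 1). Over 9 RPE genes it was 0.234. Krt18 (0.156) and Krt1 (0.147) were among the least variable keratins.

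Krt12, the keratin of corneal epithelium, had levels of 3.01, 2.66, 1.32 and 4.83 in mutants at 1 month, against 2.27, 3.82, 5.55 and 1.14 in wild type. At 1 year they were 5.36, 7.505, 5.11 and 2.71 in mutants, against 6.70, 4.58, 0.51 and 5.75 in wild type. The genotypes overlapped at both ages, and the range over all arrays was 6.995 log2 units. The differences were -0.24 ± 1.34 at 1 month (adjusted p = 0.957) and 0.78 ± 1.34 at 1 year (adjusted p = 0.875, limma, n = 4 each). Without the arrays on which Xist was above Ddx3y they were 0.72 at both ages (adjusted p = 0.955 and 0.93, limma), so the 1-month difference turned its sign.

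Krt5, the type II keratin of basal cells, averaged 4.00 ± 1.35 in mutants and 3.59 ± 1.27 in wild type at 1 month, and 5.87 ± 1.14 in mutants and 4.87 ± 2.07 in wild type at 1 year (SD, n = 4 each). Its partner Krt14 averaged 0.18 ± 1.44 in mutants and -0.54 ± 0.51 in wild type at 1 month, and 1.09 ± 0.20 in mutants and 0.80 ± 1.54 in wild type at 1 year. Krt15, also of basal cells, averaged 4.05 ± 1.03 in mutants and 3.36 ± 1.06 in wild type at 1 month, and 5.30 ± 0.20 in mutants and 5.01 ± 1.70 in wild type at 1 year. None of these basal keratins was called between genotypes.

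Krt4 averaged -1.60 ± 0.93 in mutants and -2.03 ± 1.01 in wild type at 1 month, and -1.24 ± 0.64 in mutants and -0.61 ± 1.81 in wild type at 1 year. Krt13 averaged 0.44 ± 0.84 in mutants and -0.12 ± 1.14 in wild type at 1 month, and 1.30 ± 0.51 in mutants and 0.99 ± 1.997 in wild type at 1 year. Krt6a and Krt6b, type II keratins known to rise in wounded skin, had genotype differences of 0.87 and 0.97 at 1 month and of 0.85 and 0.81 at 1 year, with limma adjusted p between 0.644 and 0.788.

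Of the 20 surface keratins, Krt5, Krt12, Krt15, Krt17 and Krt1 were set against other markers of surface epithelium from array to array; the other 15 were not tested in this way. Each array's mean over 17 such genes without keratins lay between -1.71 and -0.14 in mutants and -1.83 and -0.44 in wild type at 1 month, and between -0.26 and 1.496 in mutants and -1.86 and 1.17 in wild type at 1 year. Over the 16 arrays Krt5 followed this mean with Pearson's r = 0.987 and Spearman's rho = 0.985 (permutation p = 1e-05 for both, the smallest these permutations can give; adjusted p = 0.00017 over the 68 p-values of 34 relations), and r was 0.983 without the 2 arrays farthest from the median. Within the 8 mutant arrays r was 0.987, within the 8 wild-type arrays 0.985, on slide 1 0.991 and on slide 2 0.982.

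For Krt12 r was 0.927 and rho 0.897 (permutation p = 1e-05 and 2e-05, adjusted p = 0.00017 and 0.000272), and r was 0.887 without the 2 farthest arrays. It was 0.948 in mutants and 0.927 in wild type, and 0.958 and 0.899 on slides 1 and 2. Krt15 had r = 0.886 and rho = 0.885 over the 16 arrays (permutation p = 1e-05 and 5e-05, adjusted p = 0.00017 and 0.000378), r = 0.766 in mutants and 0.963 in wild type, 0.832 on slide 1 and 0.963 on slide 2, and 0.957 without the 2 farthest arrays. Krt17, a type I keratin of hair follicles and wounded skin, had r = 0.723 and rho = 0.75 (permutation p = 0.00156 and 0.0012, adjusted p = 0.00432 and 0.00371). Its r was 0.862 without the 2 farthest arrays, 0.436 in mutants and 0.877 in wild type, and 0.608 and 0.868 on slides 1 and 2.

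In the 8 wild-type arrays Krt23 had r = 0.884 and rho = 0.810 with the surface mean (exact permutation p = 0.00506 and 0.0218, adjusted p = 0.0120 and 0.0411), and r = 0.866 without the 2 farthest arrays. In the 8 mutant arrays r was -0.167 and rho -0.310 (exact permutation p = 0.703 and 0.462, adjusted p = 0.771 and 0.582). The difference between these correlations was not tested. The 8 wild-type arrays hold 2 ages, and the surface mean averaged -1.13 at 1 month and -0.14 at 1 year. Krt23, Krt8 and Krt17 were also called higher with age in wild type (below). The permutations did not hold age fixed. A shared age shift and a relation from array to array cannot be told apart in these values. Since Krt23 separated by genotype, no value over all 16 arrays is given.

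For Krt8, r was 0.824 and rho 0.643 in the 8 wild-type arrays of both ages (exact permutation p = 0.0114 and 0.0962, adjusted p = 0.0228 and 0.149) and -0.264 and -0.310 in the 8 mutant arrays (exact permutation p = 0.529 and 0.462, adjusted p = 0.643 and 0.582). Over all 16 it was 0.501 and 0.391 (permutation p = 0.0475 and 0.135, adjusted p = 0.0751 and 0.200), 0.824 without the 2 farthest arrays, 0.210 on slide 1 and 0.830 on slide 2. Krt18 had r = -0.166 and rho = -0.035 over all 16 arrays (permutation p = 0.541 and 0.901, adjusted p = 0.645 and 0.957). Krt1 had r = -0.346 and rho = -0.048 in mutants (exact permutation p = 0.415 and 0.935, adjusted p = 0.543 and 0.963) and r = 0.497 and rho = 0.476 in wild type (exact permutation p = 0.211 and 0.243, adjusted p = 0.299 and 0.337).

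**Figure D3:**
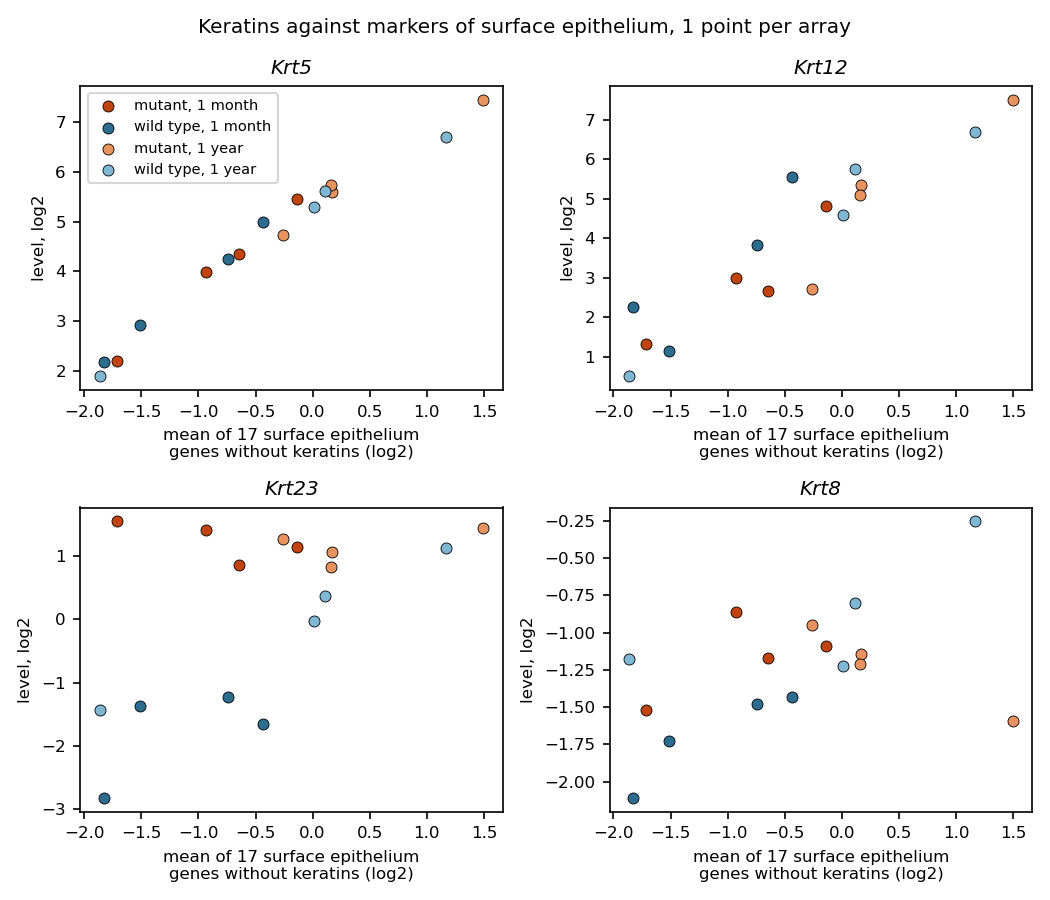
Levels of Krt5, Krt12, Krt23 and Krt8 (log2, vertical) against each array's mean over 17 surface epithelium genes that are not keratins (log2, horizontal), 1 point per array, coloured by group. Krt5 (r = 0.987) and Krt12 (r = 0.927) lie along a line in both genotypes. Krt23 does so in the wild-type arrays of both ages together (r = 0.884) and stays between 0.82 and 1.54 in the mutant arrays.

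With age, 3 keratins were called in wild type and all 3 were higher at 1 year: Krt17, Krt23 and Krt8. This is 3 of 52, beside 7.31% of all genes called higher and 12.4% called in either direction, and 9 keratins had an unadjusted p under 0.05, beside 26.4% of all genes. The groups did not overlap for 1 keratin (Krt8), beside 18.9% of all genes. The median age difference in wild type was 0.12 over the keratins and -0.03 over all genes. Among the surface keratins it was 0.90, and 16 of the 20 had a positive difference.

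Krt17 levels were 2.31, 0.39, -2.67 and -0.32 in wild type at 1 year, against -4.84, -2.61, -3.60 and -3.31 in wild type at 1 month, a difference of 3.52 ± 1.05 (limma adjusted p = 0.0414). In mutants they were -0.52, -1.31, 0.54 and -0.09 at 1 year, against -1.68, -1.86, -3.15 and 1.94 at 1 month, a difference of 0.84 ± 1.05 (limma adjusted p = 0.698). Replicate 4 of the mutants at 1 month and replicate 1 of the wild type at 1 year were the highest arrays. In wild type Krt17 lost its call on leaving out any array but replicate 3 at 1 year (2.72 to 3.84, adjusted p 0.052 to 0.14 by limma), and without that replicate it was 4.38 (limma adjusted p = 0.0124).

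Krt8 was 0.82 ± 0.22 higher at 1 year than at 1 month in wild type (limma adjusted p = 0.0254) and differed by -0.06 ± 0.22 in mutants (adjusted p = 0.903). Its wild-type call was lost without replicate 1 at 1 month (0.68, limma adjusted p = 0.0812), replicate 4 at 1 month (0.81, adjusted p = 0.0525), replicate 1 at 1 year (0.62, adjusted p = 0.0812) or replicate 4 at 1 year (0.80, adjusted p = 0.0544). Krt23 was 1.77 ± 0.44 higher in wild type (limma adjusted p = 0.0164) and differed by -0.09 ± 0.44 in mutants (adjusted p = 0.938). Its wild-type call was lost without replicate 1 at 1 month (1.42, limma adjusted p = 0.0528) or replicate 1 at 1 year (1.40, adjusted p = 0.0563). The test of the age change between genotypes is the one given above, and it called neither gene.

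Other tissue markers moved with age in wild type. Of 9 RPE genes 4 were called higher at 1 year, of 9 lens genes 5 were called lower, and of 17 surface epithelium genes 0 were called (limma; 2 at an unadjusted p under 0.05). Of 9 neutrophil genes 3 were called higher (S100a8, S100a9 and Camp), and of 10 gliosis and stress genes 4 were called higher (C4b, Osmr, Serpina3n and Timp1) and 1 lower (Gfap). The part of these lists in the keratin age differences was not tested. Fits with the surface mean or the RPE mean as a covariate are given next. With the surface mean as a covariate the wild-type age differences were 2.30 for Krt17 (adjusted p = 0.146), 1.25 for Krt23 (adjusted p = 0.0525) and 0.65 for Krt8 (adjusted p = 0.0998, limma). The RPE mean did not overlap between ages in wild type (2.55 to 3.12 at 1 month, 3.16 to 3.51 at 1 year). A fit with it cannot part age from RPE level. With the RPE mean as a covariate the age differences were 3.37 (adjusted p = 0.244), 1.21 (adjusted p = 0.288) and 0.36 (adjusted p = 0.482, limma). On slide 1 they were 2.59, 1.30 and 0.59 (adjusted p = 0.459, 0.372 and 0.298), and on slide 2 they were 4.45, 2.25 and 1.05 (adjusted p = 0.0464, 0.0113 and 0.0974; limma, Krt17, Krt23 and Krt8 in that order). With slide as a block the limma adjusted p was 0.0511 for Krt17, 0.00898 for Krt23 and 0.0156 for Krt8. Without wild-type replicate 3 at 1 year, the array with the lowest surface mean, 12 keratins were called in wild type instead of 3, among them Krt13, Krt14, Krt15, Krt4, Krt6a and Krt6b. The share of all genes called in that fit is not given here. Over the alternatives the count of all genes ranged from 188 to 2797 (main 2352). The 12 can therefore not be read as particular to keratins.

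In mutants 0 of 52 keratins were called between 1 year and 1 month by limma, beside 6.7% of all genes. At an unadjusted p under 0.05 there were 2 (Krt2 and Krt78), beside 21% of all genes. The groups did not overlap for Krt15, higher at 1 year, and Krt2, lower at 1 year, beside 13.8% of all genes, and neither passed the test (differences of 1.25, adjusted p = 0.360, and -0.30, adjusted p = 0.0772, by limma). The median age difference was 0.05 over the keratins and -0.05 over all genes, and over the surface keratins 0.32. Without the arrays on which Xist was above Ddx3y the limma count was also 0. Of 10 gliosis and stress genes 8 were called higher at 1 year in mutants, and of 9 neutrophil genes 1 (Lcn2). Of 9 RPE genes 2 were called lower (Pmel and Tyr), and of 9 lens genes 2 (Cryga and Crygd). Of 17 surface epithelium genes 0 were called (limma, 6 at an unadjusted p under 0.05). The median difference of these 17 was 1.40 in mutants and 1.16 in wild type, with 16 positive in each. The part of these lists in the keratin values was not tested.

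**Figure D4:**
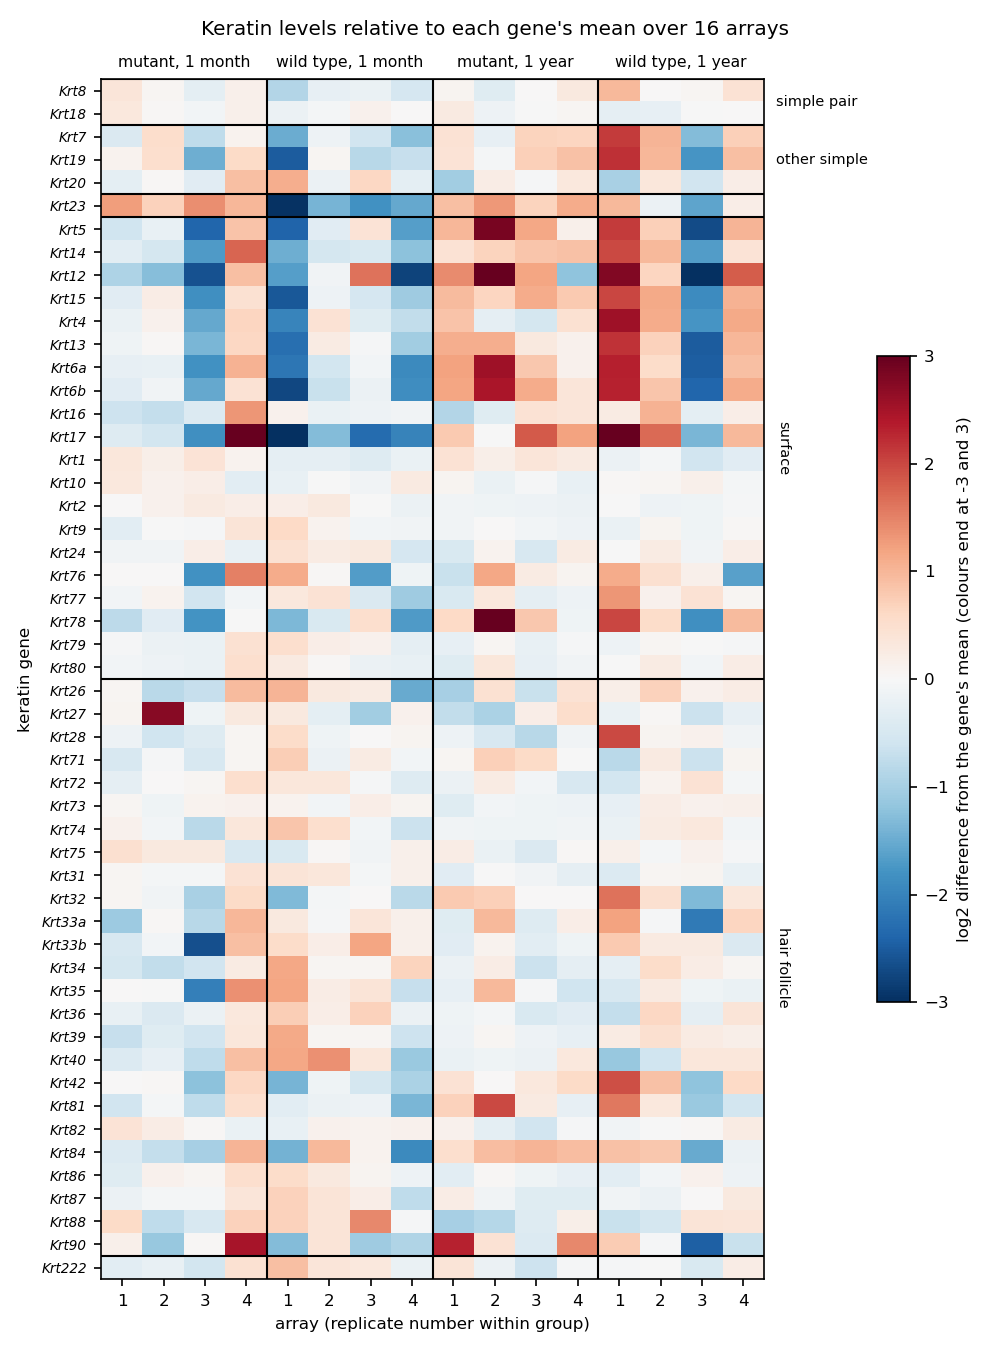
The 52 tested keratins (down) on the 16 arrays (across, by group and replicate number), coloured by the log2 difference from each gene's mean over the arrays, with colours ending at -3 and 3. Krt23 is above its mean on all 8 mutant arrays, Krt18 differs by at most 0.60 between any 2 arrays, and surface keratins from Krt5 to Krt17 are mostly below their means on replicate 3 of the 1-year wild type and above them on replicate 1.

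The hair follicle keratins gave 0 calls among 25 tested in each of the 5 comparisons by limma, beside 0.42% to 12.4% of all genes. At an unadjusted p under 0.05 there were 0 to 3, beside 10.8% to 26.4% of all genes. Some of the class were dim: Krt33a, Krt35 and Krt84 were well above background on 9, 4 and 6 of the 16 arrays. At 1 month the largest differences in either direction among all uncalled keratins were those of Krt17 (2.40, adjusted p = 0.292), Krt90 (1.11, adjusted p = 0.562), Krt33b (-1.09, adjusted p = 0.359) and Krt34 (-0.89, adjusted p = 0.125), by limma. Krt33b was at -8.29 on mutant replicate 3, below -6.34, the lowest level well above background on that array. The Krt17 difference was 1.36 without mutant replicate 4 (limma adjusted p = 0.378), 3.72 without the arrays on which Xist was above Ddx3y (adjusted p = 0.301), 3.76 on slide 1 (adjusted p = 0.771) and 1.04 on slide 2 (adjusted p = 0.754). At 1 year it was -0.27 over all arrays (adjusted p = 0.951) and -0.21 without the array on which Xist was above Ddx3y (adjusted p = 0.977, limma). At 1 year the largest differences among the uncalled keratins included Krt90 (1.53, limma adjusted p = 0.508), Krt28 (-0.92) and Krt77 (-0.63). Krt90 was at -7.12 on wild-type replicate 3 at 1 year, below -6.22, the lowest level well above background on that array. The median difference of the hair follicle keratins was -0.12 at 1 month and -0.15 at 1 year. Krt222 averaged 4.89 ± 0.43 in mutants and 5.40 ± 0.46 in wild type at 1 month, and 4.94 ± 0.42 in mutants and 4.99 ± 0.29 in wild type at 1 year.

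Proteins that anchor keratin filaments, those of desmosomes and hemidesmosomes and their linkers, gave 0 of 19 called by limma in either genotype comparison (1 and 0 at an unadjusted p under 0.05). Of all genes, 2.71% were called at 1 month and 0.857% at 1 year, and 15.2% and 11.3% had an unadjusted p under 0.05. Dsp, the desmosomal plaque protein that binds keratins, had differences of 0.61 (adjusted p = 0.806) and 0.94 (adjusted p = 0.759). With age in mutants 1 of the 19, the linker Plec, was called (0.80 higher at 1 year, limma adjusted p = 0.0388). Of 15 other intermediate filament genes 0 were called between genotypes at either age (limma; 4 and 1 at an unadjusted p under 0.05). Vim, the filament of Müller glia, differed by -0.08 at 1 month and 0.23 at 1 year, and Gfap, the astrocyte filament that Müller glia make under stress, by -0.63 (adjusted p = 0.264) and 1.14 (adjusted p = 0.0577, limma). With age in wild type Synm rose by 0.41 (adjusted p = 0.0155) and Gfap fell by 1.09 (adjusted p = 0.0132, limma). Of 9 tested cornified envelope genes 0 were called between genotypes at either age (limma; 1 and 0 at an unadjusted p under 0.05). Loricrin (Lor), the main protein of that envelope, was 0.53 higher at 1 year in wild type (limma adjusted p = 0.0183).

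The genes most like a keratin over the 16 arrays, of all genes with a standard name that were tested, are given by Pearson's r and, being chosen as the highest, with no test. For Krt23 they were P4hb, a protein disulfide isomerase of the endoplasmic reticulum (r = 0.937), Csf1r, the receptor of macrophages and microglia for colony stimulating factor (0.932), Scpep1 (0.914), the glutamate transporter Slc1a1 (0.909) and Ifi27l2a (0.901). These arrays include the genotype and age groups, which the values share. For Krt12 they were the water channel Aqp5 (0.980), Slurp1 (0.977), the corneal crystallin Aldh3a1 (0.976), the desmosomal cadherin Dsg1a (0.975) and Lypd2 (0.971). For Krt18 they were Acot1 (0.818), Rasl10a (0.793), Slc48a1 (0.782), Gpr137 (0.762) and Inpp5a (0.760).

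On 11 of the 53 genes the array had a second probe, and the genotype order of the group means can be set beside the main one. For Krt12 the second probe averaged 0.08 in mutants and -0.41 in wild type at 1 month, where the main probe's means ran the other way (2.96 in mutants and 3.20 in wild type), and 2.20 in mutants and 0.95 in wild type at 1 year. For Krt5 it averaged -0.77 in mutants and -1.40 in wild type at 1 month, and 1.03 in mutants and 0.13 in wild type at 1 year. The second probe also reversed the order for Krt10, Krt222, Krt28 and Krt78 at 1 month. At 1 year it did so for Krt222, Krt28, Krt2 and Krt36. That of Krt28 (-7.31 in mutants and -7.46 in wild type at 1 year) was well above background on 3 of 16 arrays. For Krt13, Krt40 and Krt6b, as for Krt5, the order was the same at both ages. Krt23, Krt1, Krt8, Krt17 and Krt18 each had 1 probe, so no second probe checked their values.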

How the data were processed

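The members and gene lists were chosen with earlier results of these data known. Per the file headers, the authors deposited scanner output of Agilent Feature Extraction 11.0.1.1, whose processed intensity has the background removed; the deposited matrix holds log2 values that are, from the values, quantile normalized, and it served as an alternative. Per the labels' protocols, RNA was isolated with a mirVana kit, had an integrity number of at least 8.0 and was labelled by Agilent's Low Input Quick Amp kit. The probe design is of build mm9 per the file headers; RefSeq GRCm38.p6 was used for names, gene order and promoters.

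Outlier spots were dropped, log2 was taken of the processed intensity, levels were set relative to the 75th percentile of their array, and spots were averaged per probe. Of 55681 probes, 27235 were named by 1 gene, none by several and 28446 by none. A probe had to be well above background on 4 arrays or more, and each gene was read from its probe with the highest mean (19028 genes). One limma model (limma 3.58.1, R 4.3.3) with 4 group means gave 5 contrasts, tested two-sided, with Benjamini-Hochberg adjustment over all genes and a threshold of 0.05. It was tested on simulated data first. The number of arrays limits the precision. Krt10 was given beside Krt1, outside the rule that follows. Values on every array are given for Krt8, Krt18, Krt23 and each keratin called, and for Krt12; group means or differences for other keratins named by a rule (the first 8 surface keratins, the simple keratins, and the 3 largest differences in each direction per genotype comparison). The labels do not state that each array is a separate mouse, so p-values measure the spread between these samples, which may be technical. Correlations used 100000 permutations over 16 arrays and all pairings over 8 arrays.

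Replicate numbers are shared between groups. Deviations of same-numbered arrays from their group means correlated between -0.535 and 0.304 over 24 pairs, so the numbers were not treated as pairs.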

Additional observations from a re-analysis of the deposited data

Results flagged for a closer look

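Among 88 sets of 4 replicates (22 named keratins in 4 groups), 1 had a replicate far from the others by Dixon's criterion, which chance meets in about 1 in 20 sets. It was Krt28, a hair follicle keratin, whose level was -0.95 on replicate 1 of the 1-year wild type, where the nearest other replicate was at -2.80 and the lowest at -3.03. The genotype difference of Krt28 at 1 year (-0.92, limma adjusted p = 0.326) includes that array.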

How the results depend on the processing

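The counts of keratins called were 2 and 1 between genotypes at 1 month and 1 year, 0 for the change of that difference, 0 with age in mutants and 3 with age in wild type. The surface and RPE covariates and the single-slide fits were chosen after seeing the data. At 1 month, 1 keratin (Krt23) was called with normexp background correction, without the arrays with Xist above Ddx3y, in a fit of only the groups compared, and on slide 2 alone, and 0 with the RPE covariate and on slide 1 alone. Leaving out 1 replicate gave 1 to 3. Krt34, lower in mutants and uncalled in the main fit, gained a call without mutant replicate 4. It also gained one with the array's row on the slide as a covariate. At 1 year, 0 were called with quantile normalization, normexp, the deposited matrix, the replicate block, without the arrays with Xist above Ddx3y, with only the groups compared, and on either slide alone. Leaving out 1 replicate gave 0 to 1. With age in wild type, 0 were called with only the groups compared, the surface or RPE covariate, or slide 1 alone. Leaving out 1 replicate gave 0 to 12: 0 without replicate 1 at 1 month or at 1 year, 1 without replicate 4 at either age, and 12 without replicate 3 at 1 year. The cause of these changes was not tested, except that single slides and left-out arrays hold fewer samples. The other 2 counts stayed at 0 under all 30 and 23 alternatives. With the replicate block the counts were 2, 0, 0, 0 and 2; 2 of 16 arrays correlated best with their own number. Over all genes the counts ranged from 1 to 931 at 1 month (main 516), 10 to 308 at 1 year (163), 0 to 195 for the change (80), 37 to 1923 with age in mutants (1274) and 188 to 2797 with age in wild type (2352). These are ranges over the settings, so the keratin count of a single setting has no share of all genes beside it. Krt23 at 1 month kept its call in all 8 fits without 1 replicate (2.65 to 3.18, largest limma adjusted p = 0.0106). Over 110 gene results, 2620 of 2684 alternative values kept direction and side of the threshold or were uncalled in both. Most of these results were uncalled in the main fit and had no call to lose. Another 53 values lost and 11 gained the call. The called results kept their call in 21 (Krt23) and 14 (Krt1) of 23 alternatives at 1 month and 13 (Krt1) at 1 year. With age in wild type they kept it in 17 (Krt23), 14 (Krt8) and 6 (Krt17) of 23. No called value changed sign. Among all values 195 did, 52 of them with a main difference over 0.5 in size.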
